A study of Drosophila melanogaster with 2 samples.

Results

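Phototransduction is the chain of reactions by which a photoreceptor turns light into an electrical signal. In the fly, light converts rhodopsin to metarhodopsin, which activates a Gq protein and through it a phospholipase C, and the lipid reaction opens the TRP and TRPL cation channels. Arrestins bind metarhodopsin and end the signal. A PDZ scaffold protein, INAD, holds channel, phospholipase and protein kinase C together in the rhabdomere. Fly larvae see with a small pair of organs, the Bolwig organs, while the compound eye is still forming in the eye disc.

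The set held 10 genes, chosen by name: ninaB, Gbeta76C, Arr1, Arr2, ninaE, norpA, trp, trpl, inaC and inaD. A probe was taken where the platform annotation gave it exactly 1 gene symbol that was a member or its current synonym. By that rule 8 of the 10 genes had a probe, each of them 1 probe, out of 12236 genes with a probe in all. Of these 8 genes 7 had a value, and the probe of trp was blank on both arrays. The genes ninaE, which encodes the major rhodopsin Rh1, and norpA, which encodes the phospholipase C, were not analysed here. The count of probes lacking a value was thus 1 of 8, or 12.5%, against 14.8% of all probes with 1 symbol.

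The study asked whether extra B52, an SR splicing protein, alters the expression of other genes in Drosophila melanogaster larvae. RNA of GMR X GFP-B52 larvae was hybridised against RNA of GMR X GFP-NLS control larvae on 2 two-colour arrays with exchanged dyes. On replicate 1 the B52 RNA was labelled with Cy5, and on replicate 2 with Cy3. Both crosses share GMR, a promoter built on binding sites of the eye transcription factor Glass that is active in the developing eye, and both carry green fluorescent protein, fused to B52 in one cross and to a nuclear localisation signal in the other. The labels used here state no larval stage, sex, dissected tissue or number of animals. The control RNA of replicate 1 is labelled cytoplasmic RNA, and that of replicate 2 polyA RNA, as are both B52 RNAs. On replicate 1 the cross and the labelled RNA preparation thus differ together, and their effects cannot be told apart on that array. Where a gene is called higher in the B52 larvae below, this limit holds for replicate 1. Whether separate larvae were used for each array is not stated in the labels. Errors and p-values thus measure only the spread between these arrays, which may be technical. For limma that spread is partly pooled over all probes. In whole larvae or other bulk tissue, fewer cells of a type and less RNA per cell cannot be told apart, and a ratio shows neither whether photoreceptors were present nor how much of a transcript there was.

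Each value is a deposited log ratio of 1 spot. Neither its log base nor its direction is stated, so 2 readings are given. In the channel reading both arrays give B52 over control as deposited. In the dye reading a deposited ratio stands for Cy5 over Cy3, so replicate 2 enters with its sign reversed. A gene with deposited values of opposite sign therefore has arrays of equal sign in the dye reading and of opposite sign in the channel reading, and a gene with equal deposited signs has the reverse. If the ratios were taken as control over B52, every sign below would turn. Over the 12500 probes measured on both arrays the deposited values of the arrays were nearly unrelated across probes (Pearson's r = 0.0095), and with sub-grid medians removed r was -0.0777. The sub-grids were inferred from the repeat of unnamed positions along the probe IDs. Medians of the 24 sub-grids ranged from -0.073 to 0.0795 on replicate 1 and from -0.139 to 0.159 on replicate 2. They went together between arrays (r = 0.847). Over probes the SD was 0.191 (replicate 1) and 0.2 (replicate 2). The 5 probes of B52 itself averaged -0.0468 ± 0.126 (SD of the array means, n = 2 arrays) by the channel reading. By the dye reading they averaged -0.0892 ± 0.0662, so in neither reading was the mean over probes above 0. In the dye reading the probes did not all share a sign. As deposited, the 5 probes averaged -0.136 on replicate 1 and 0.0424 on replicate 2. A B52 probe with -0.102 on replicate 1 and -0.304 on replicate 2 had a dye-reading mean of 0.101 (limma adjusted p = 0.999). Its channel-reading mean was -0.203 (limma adjusted p = 0.801). The sign of that probe in the dye reading was thus opposite to that of the mean over the 5 probes.

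Several patterns of sign were seen among the members. The genes ninaB, Gbeta76C, Arr2 and Arr1 were above 0 on replicate 1 and below 0 on replicate 2, and so higher in the B52 larvae on both arrays in the dye reading. The channel gene trpl and the kinase gene inaC were above 0 on both arrays, and so higher in the B52 larvae on both arrays in the channel reading. The scaffold gene inaD lay within 0.014 of 0 on each array. No member passed the test in either reading.

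**Figure D1:**
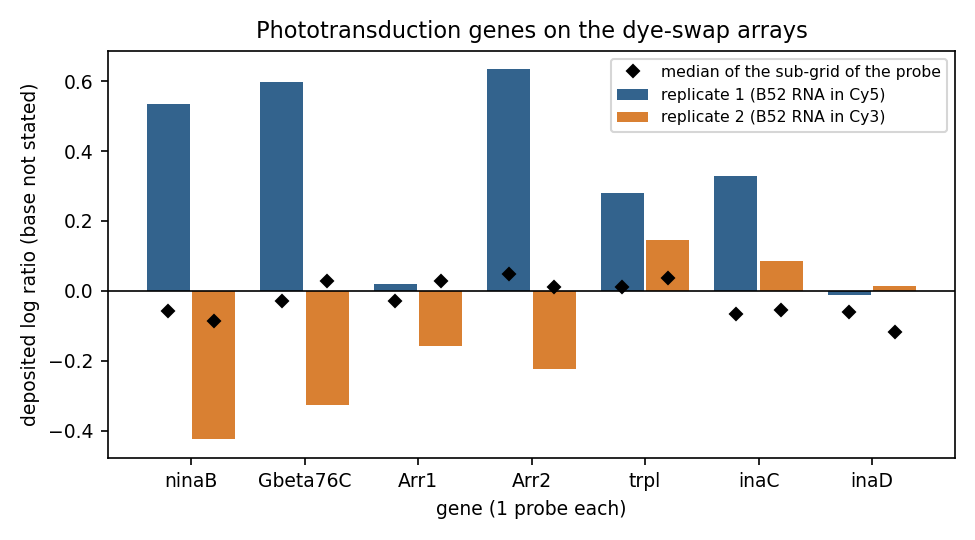
Deposited log ratios (vertical axis, log base not stated) of the 7 measured phototransduction genes on replicate 1 (blue bars) and replicate 2 (orange bars), with the median of the sub-grid that held the probe (black diamonds). The values of ninaB, Gbeta76C and Arr2 lie between 0.536 and 0.634 on replicate 1 and between -0.425 and -0.225 on replicate 2, while trpl and inaC are above 0 on both arrays.

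The enzyme gene ninaB (Dmel_CG9347) acts first in this set, since its product cleaves and isomerises carotenoids to make the retinal chromophore of rhodopsin. Its probe read 0.536 on replicate 1 and -0.425 on replicate 2. Under the dye reading both arrays thus gave higher ninaB in the B52 larvae, by similar amounts. The mean in that reading was 0.48 ± 0.08 (SD, n = 2 arrays), or 3.02-fold on a log10 scale and 1.40-fold on a log2 scale. Its adjusted p from limma was 0.363, with an unadjusted p of 0.0021. By the channel reading the arrays disagreed in sign and the mean was 0.06 ± 0.68 (limma adjusted p = 0.984). Among the measured members ninaB had the highest dye-reading mean.

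Gbeta76C (Dmel_CG8770) encodes the beta subunit of the Gq protein of the eye. Its probe had 0.598 on replicate 1 and -0.327 on replicate 2. As with ninaB, the values were on opposite sides of 0 as deposited. The dye-reading mean was 0.46 ± 0.19 (SD, n = 2 arrays), or 2.90-fold on a log10 scale and 1.38-fold on a log2 scale. Its adjusted p from limma was 0.44. The channel-reading mean was 0.14 ± 0.65 (limma adjusted p = 0.965).

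The arrestins Arr1 and Arr2 both bind activated rhodopsin. Arr2 (Dmel_CG5962), the more abundant of them in adult photoreceptors, had 0.634 on replicate 1, the highest value of any member, and -0.225 on replicate 2. Arr1 (Dmel_CG5711), which also takes part in the endocytosis of rhodopsin, had 0.019 on replicate 1 and -0.158 on replicate 2. Both were thus higher in the B52 larvae on both arrays in the dye reading, Arr1 by little on replicate 1. The dye-reading mean of Arr2 was 0.43 ± 0.29 (SD, n = 2 arrays; limma adjusted p = 0.549), and that of Arr1 was 0.09 ± 0.10 (limma adjusted p = 0.999). Arr2 had a channel-reading mean of 0.20 ± 0.61 (limma adjusted p = 0.943) and Arr1 one of -0.07 ± 0.13 (limma adjusted p = 0.961), so the sign of Arr1 depended on the reading. Read by dye, the log ratio of Arr2 exceeded that of Arr1 by 0.615 on replicate 1 and by 0.067 on replicate 2. That difference, picked after the values were seen and not tested, had a mean of 0.34 ± 0.39. Its spread over the arrays was thus as large as the difference. By the channel reading the difference was 0.615 and -0.067, with a mean of 0.27 ± 0.48, so the arrays disagreed in sign.

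TRPL, encoded by trpl (Dmel_CG18345), is the second light-activated cation channel beside TRP. Its probe had 0.281 on replicate 1 and 0.145 on replicate 2. Both deposited values were above 0, the opposite pattern to ninaB. The channel-reading mean was 0.21 ± 0.10 (SD, n = 2 arrays), or 1.63-fold on a log10 scale and 1.16-fold on a log2 scale. Its adjusted p from limma was 0.779 and its unadjusted p 0.0612. For the dye reading the arrays disagreed in sign and the mean was 0.07 ± 0.30 (limma adjusted p = 0.999). No value could be given for trp, the gene of the major channel.

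The kinase gene inaC (Dmel_CG6518) encodes the eye protein kinase C, which acts in ending the response to light. Its probe had 0.329 on replicate 1 and 0.084 on replicate 2, again above 0 on both. The channel-reading mean was 0.21 ± 0.17 (SD, n = 2 arrays; limma adjusted p = 0.801) and the dye-reading mean 0.12 ± 0.29 (limma adjusted p = 0.999). The scaffold gene inaD (Dmel_CG3504), whose protein binds INAC and TRP, had -0.011 on replicate 1 and 0.014 on replicate 2. The channel-reading mean of inaD was 0.0015 ± 0.018 (limma adjusted p = 0.998), and its dye-reading mean was -0.01 ± 0.0021 (limma adjusted p = 0.999). The 95% interval of limma for inaD reached from -0.211 to 0.214 in the channel reading and from -0.242 to 0.217 in the dye reading, so log ratios within these bounds are not excluded by it.

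**Figure D2:**
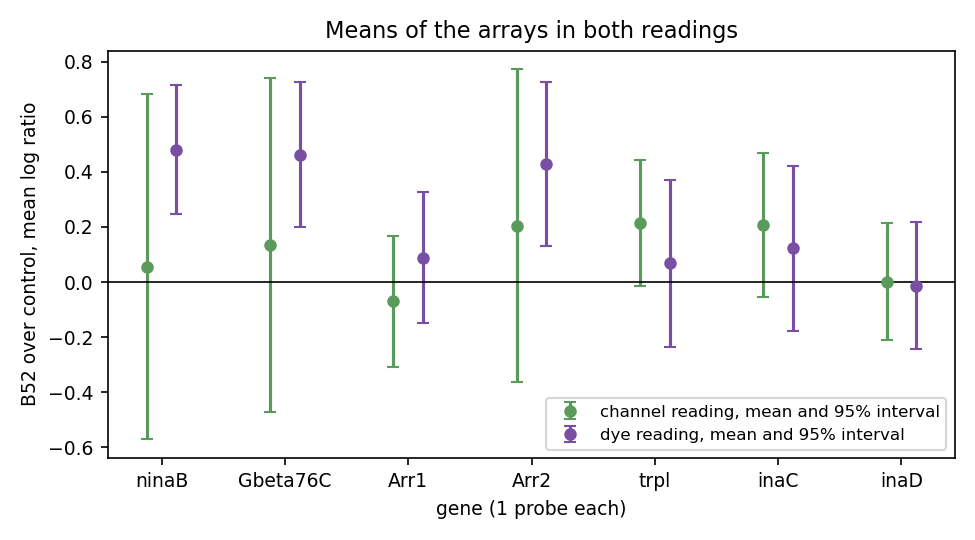
Mean log ratio of B52 over control (vertical axis) of each measured gene in the channel reading (green) and the dye reading (purple), with points for the mean of 2 arrays and bars for limma's 95% interval, not adjusted for the number of probes. The dye-reading intervals of ninaB (0.246 to 0.715), Gbeta76C (0.201 to 0.724) and Arr2 (0.131 to 0.728) lie above 0, and the channel-reading intervals of all 7 genes hold 0.

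With limma and Benjamini-Hochberg adjustment over the 12500 probes, 0 of the 7 member probes were called under the channel reading and 0 under the dye reading, where 0% of all probes were called in each. At an unadjusted p of 0.05, limma passed 3 of the 7 in the dye reading (ninaB, Gbeta76C and Arr2), against 6% of all probes, and 0 of the 7 in the channel reading, against 6.52%. The robust form of limma gave the same member counts, 0 adjusted in both readings, and 3 and 0 unadjusted. By the dye reading 4 of the 7 genes were above 0 on both arrays, against 21.9% of the 10584 measured genes, and 1, inaD, was below 0 on both, against 25.6%. In the channel reading 2 of the 7 were above 0 on both arrays, against 28.1% of genes, and 0 were below, against 24.3%. A log ratio of at least 0.301 on each array, which is 2-fold if the values are log10, was reached by ninaB and Gbeta76C in the dye reading, against 1.13% of genes, and by no member in the channel reading, against 0.718%. The member set was proposed with such values known, so these counts describe it and do not test it.

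**Figure D3:**
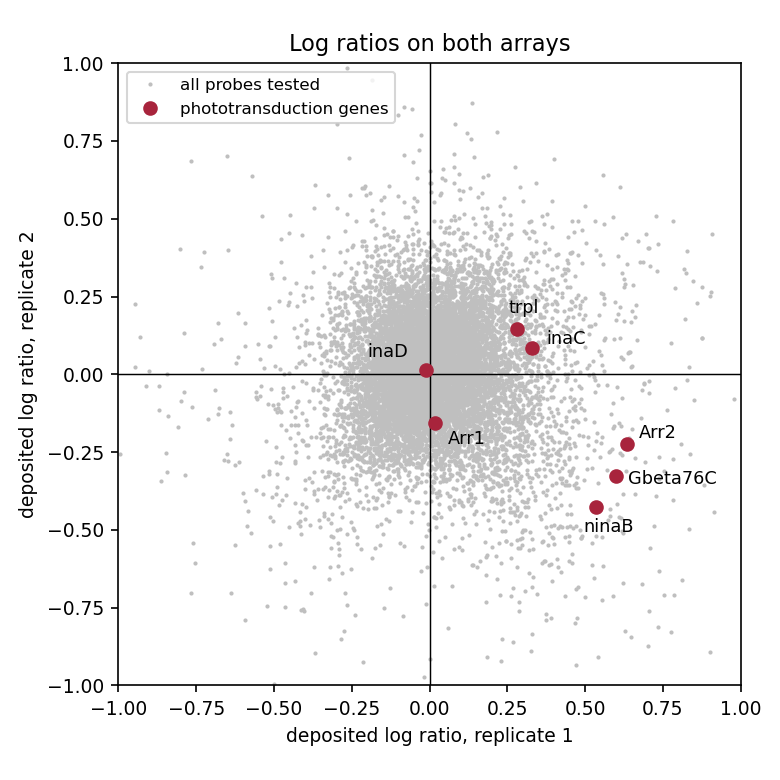
Deposited log ratio on replicate 1 (horizontal) against replicate 2 (vertical) for the 12500 probes measured on both arrays (grey) and the 7 phototransduction genes (red), each axis cut at 1 on either side, which leaves out 45 probes. Genes in the lower right are higher in the B52 larvae on both arrays in the dye reading, as ninaB, Gbeta76C, Arr2 and Arr1 are, and genes in the upper right are so in the channel reading, as trpl and inaC are.

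The median over the 7 genes was 0.136 ± 0.344 (SD of the array medians, n = 2 arrays) in the channel reading, beside 0.0085 over all measured genes. It was 0.329 on replicate 1 and -0.158 on replicate 2, so its sign in that reading rested on replicate 1. On that array the RNAs also differ in the labelled preparation. The dye-reading median was 0.123 ± 0.121, beside -0.0075 over all genes, with 0.329 and 0.158 on the single arrays.

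The place on the array was compared with these values. The members were chosen with such values known, so the comparison describes them and an effect of place was not tested. The 7 measured probes lay in 6 different sub-grids, since Gbeta76C and Arr1 shared sub-grid 24 while the others lay singly. For ninaB the sub-grid medians were -0.0575 on replicate 1 and -0.0865 on replicate 2, far from its own values. On replicate 1 ninaB (0.536) exceeded all 14 measured probes within 8 IDs on either side, whose highest value was -0.008. On replicate 2 it (-0.425) lay below all 14, whose lowest was -0.263. Gbeta76C likewise lay above the highest of its 15 neighbours on replicate 1 (0.143) and below the lowest on replicate 2 (-0.258). Arr2 exceeded the highest of its 12 neighbours on replicate 1 (0.282) but did not lie below the lowest on replicate 2 (-0.428). Less the sub-grid median, trpl had 0.269 and 0.109, and inaC 0.394 and 0.139, on replicates 1 and 2, so both kept values above 0. On replicate 1 trpl lay above the highest of its 12 neighbours (0.199), and on replicate 2 below it (0.18). The value of inaC exceeded the highest of its 12 neighbours on both arrays (0.058 and 0.053). Arr1 lay within the range of its 12 neighbours on replicate 1 (-0.21 to 0.195) and below their lowest on replicate 2 (-0.122). The value of inaD lay within the range of its 11 neighbours on both arrays (-0.245 to 0.136 and -0.226 to 0.146). With the medians removed inaD had 0.049 and 0.131, above 0 on both.

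Other genes of the visual pathway, in lists chosen by function, had values on both sides of 0 in either reading. The list of the visual cascade held 23 further names, 14 of them measured. Their median was 0.0258 under the channel reading and -0.0035 under the dye reading, with 4 genes above 0 on both arrays and 2 below in the first, and 4 above and 4 below in the second. No probe of the list passed limma's adjusted p in either reading. Ggamma30A, the gamma subunit that pairs with the Gbeta76C protein, had -0.272 on replicate 1 and 0.225 on replicate 2, the reverse of Gbeta76C, and a dye-reading mean of -0.25 ± 0.03 (SD, n = 2 arrays; limma adjusted p = 0.785). The alpha subunit gene Galphaq had 0.219 and -0.119 on the probe with both values, a dye-reading mean of 0.17 ± 0.07 (limma adjusted p = 0.999). Another Galphaq probe had a value on replicate 2 only, 0.168, of the opposite sign. Read by dye, the log ratio of Gbeta76C exceeded that of Ggamma30A by 0.87 on replicate 1 and 0.552 on replicate 2. By the channel reading this difference was 0.87 and -0.552, with a mean of 0.16 ± 1.01, so the arrays disagreed in sign. The comparison was picked after the values were seen and not tested.

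Further genes are named by size in the reading in which their arrays had equal signs. For 13 of the 22 genes so named in the visual lists the mean turned sign in the other reading. The diacylglycerol kinase gene rdgA had a dye-reading mean of 0.17 ± 0.13 (SD, n = 2 arrays; limma adjusted p = 0.999). Trpgamma, a further channel gene of the TRPC group, had 0.185 on replicate 1 and 0.38 on replicate 2, above 0 on both as was trpl. Its channel-reading mean was 0.28 ± 0.14 (limma adjusted p = 0.75). Nckx30C, a sodium/calcium-potassium exchanger, had a channel-reading mean of 0.15 ± 0.06 (limma adjusted p = 0.834). The gene stops, whose protein keeps the phospholipase stable, had -0.12 ± 0.01 (limma adjusted p = 0.874). Of the visual lists, 10 probes had a value on replicate 2 only, 5 above 0 and 5 below. Those above were of ort (0.767), rdgC (0.487), rdgB (0.347), Pkc53E (0.229) and Galphaq, and those below of ninaD, eys (-0.181), Itpr (-0.109), Pkc53E (-0.097) and boss (-0.032). A probe of rdhB had a value on replicate 1 only, -0.029. The single opsin probe listed, of Rh7, was blank on both arrays, so no opsin had a value here.

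Genes that make the chromophore with ninaB, or help opsin mature, numbered 12 names with 6 measured. By the dye reading 0 of the 6 were above 0 on both arrays and 1 was below, and in the channel reading 3 were above and 2 below. The median was -0.0565 under the dye reading and 0.0633 under the channel reading, with 0 probes called by limma in either. The carotenoid-uptake receptor ninaD, which acts before ninaB, had a value only on replicate 2, -0.251. The oxidoreductase gene ninaG had -0.593 and 0.165, a dye-reading mean of -0.38 ± 0.30 (SD, n = 2 arrays; limma adjusted p = 0.667). Xport-A, a chaperone of TRP and Rh1, had 0.197 and 0.489 and a channel-reading mean of 0.34 ± 0.21 (limma adjusted p = 0.749). Pdh, a retinol dehydrogenase of pigment cells, had 0.183 and 0.179 on the arrays and a channel-reading mean of 0.18 ± 0.0028 (limma adjusted p = 0.798). In the same reading the calnexin gene Cnx99A had -0.10 ± 0.02 (limma adjusted p = 0.898).

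**Figure D4:**
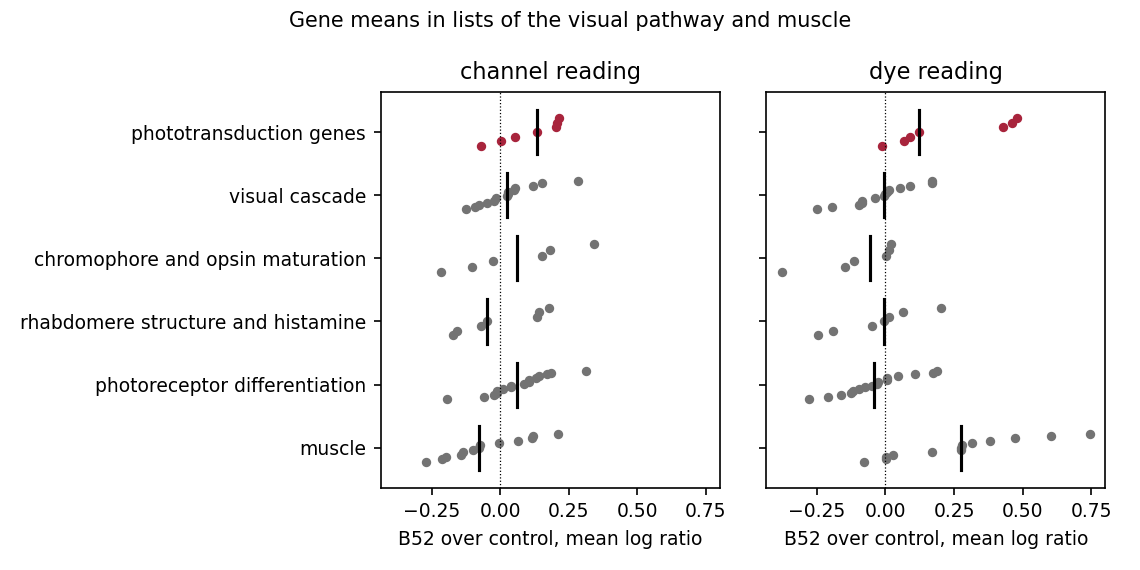
Mean log ratio of B52 over control (horizontal axis) of each measured gene in the member set (red) and the other lists (grey), in the channel reading (left) and the dye reading (right), with the list median as a black bar. In the dye reading the member median is 0.123, that of muscle 0.276, and those of the other visual lists lie between -0.0565 and -0.0035.

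Genes of rhabdomere structure and of histamine, the photoreceptor transmitter, had 7 measured of 11 names. Their medians were -0.0495 under the channel reading and -0.0045 under the dye reading, 2 genes lay above and 1 below 0 on both arrays in the first and 2 above and 2 below in the second, and limma called 0 probes. Chaoptin (chp), a surface protein that marks photoreceptors, had 0.127 and 0.227, a channel-reading mean of 0.18 ± 0.07 (SD, n = 2 arrays; limma adjusted p = 0.801). In the same reading eys, which encodes a protein of the space between rhabdomeres, averaged 0.14 ± 0.02 over 2 probes (limma adjusted p = 0.801 and 0.881), and Amph, amphiphysin, had -0.07 ± 0.0064 (limma adjusted p = 0.952). The apical polarity gene crb had a dye-reading mean of -0.25 ± 0.19 (limma adjusted p = 0.876) and a channel-reading mean of 0.14. Hdc, the histidine decarboxylase that makes histamine, had -0.19 ± 0.22 (limma adjusted p = 0.999), and e (ebony), which conjugates histamine, had 0.20 ± 0.24 (limma adjusted p = 0.999). By the channel reading e had -0.17.

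Regulators of eye and photoreceptor formation had 16 measured of 17 names. By the dye reading 2 were above and 8 below 0 on both arrays, against 21.9% and 25.6% of all genes, with a median of -0.0408. In the channel reading 5 were above and 1 below, against 28.1% and 24.3%, with a median of 0.0633. Limma called 0 of their probes in either reading. Glass itself (gl), which binds GMR, had 0.015 on replicate 1 and 0.067 on replicate 2. The dye-reading mean of ey was -0.28 ± 0.19 (SD, n = 2 arrays; limma adjusted p = 0.791), that of lz -0.21 ± 0.12 (limma adjusted p = 0.928) and that of sev -0.12 ± 0.01 (limma adjusted p = 0.999). The channel-reading means were of the opposite sign for ey (0.13) and lz (0.09). Of these, ey is the eye selector gene, lz a Runx factor of later photoreceptors and sev the receptor of the R7 cell. In the channel reading Pph13, a homeodomain factor of rhabdomere and phototransduction genes, had 0.31 ± 0.25 (limma adjusted p = 0.759), oc 0.14 ± 0.04 (limma adjusted p = 0.851) and sens -0.20 ± 0.01 (limma adjusted p = 0.779). The gene oc encodes the homeodomain factor Orthodenticle and sens a zinc-finger factor of the R8 cell.

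Genes of muscle, a tissue outside the visual system, had the same signs as ninaB, Gbeta76C and Arr2 in their array medians. Of 20 names 13 were measured. In the dye reading 8 were above 0 on both arrays and 1 was below, against 21.9% and 25.6% of all genes. The dye-reading median was 0.276 ± 0.199 (SD of the array medians, n = 2 arrays). In the channel reading 2 were above and 2 below, against 28.1% and 24.3%, with a median of -0.0755. Their deposited medians were 0.138 on replicate 1 and -0.42 on replicate 2. These genes had 23 probes, of which 6 lacked a value on an array or on both. Limma called 0 muscle probes in both readings. At an unadjusted p of 0.05 it passed 8 probes by the dye reading, against 6% of all probes, and 1 by the channel reading, against 6.52%. In each visual list beside the members it passed at most 1 probe in either reading. In the dye reading the troponin T gene up had 0.75 ± 0.14 (limma adjusted p = 0.205), the tropomyosin gene Tm2 0.60 ± 0.16 (limma adjusted p = 0.343) and the myofilin gene Mf 0.47 ± 0.10 (limma adjusted p = 0.371), the first 2 above the mean of every measured member. Named by the channel reading, zormin averaged 0.21 ± 0.04 over 3 probes (limma adjusted p = 0.705 to 0.954). Those probes differed, with channel-reading means of 0.079, 0.4355 and 0.118. Act88F had 0.12 ± 0.0049 (limma adjusted p = 0.877) and TpnC4 -0.27 ± 0.24 (limma adjusted p = 0.78). The part of muscle RNA in the values of the members was not tested.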

How the data were processed

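RNA of B52 and control larvae was compared on 2 two-colour arrays. The authors deposited 1 value per spot and array, treated here as a score because it is a log ratio of unstated base and direction. How spots were scanned, corrected and normalised is not stated in the labels used here. The arrays held 15744 spots, of which 1820 were blank on replicate 1 and 1718 on replicate 2, and 5 more on replicate 1 held the code -10000, treated as missing. No intensities were available, so dimness could not be judged, and the number of arrays limits the precision.

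Symbols came from the platform annotation, brought up to date through a RefSeq gene table: of 13147 probes with 1 symbol, 12519 matched. No probe sequence, promoter or protein table was used, so the planned motif search was not run. The 24 sub-grids of 656 spots were inferred from the repeat of unnamed positions along the probe IDs. The 960 spots at the 40 positions unnamed in all sub-grids were taken to be controls and left out. Dyes and channels were taken from the labels. The linear model of limma 3.58.1 (lmFit, eBayes; R 4.3.3) was fitted to all 12500 probes measured on both arrays, with Benjamini-Hochberg adjustment at 0.05. The eBayes step draws the variance of each probe toward a value shared over the probes. Limma's p-values and intervals therefore do not rest on a probe's own SD alone. For inaD in the dye reading the SD was 0.0021 and limma's standard error 0.0957. A run on simulated data required only that median estimates lay near the effects put in. Its noise was independent, with no sub-grid or dye pattern, so it does not bear on such patterns in these arrays. Tables and plots used Python 3.11.15, pandas 2.3.3 and matplotlib 3.10.9. A ± is the SD of 2 arrays. All members were named, and in the other lists up to 3 genes a reading, those with the largest smaller absolute value of the arrays among genes of equal sign on both. Probes of the visual lists with a value on 1 array and the marker gl were also named. The members and lists were chosen with earlier results of these data known. Alternatives covered centring, scaling, sub-grid medians, averaging of probes, the variance model, the probes tested and single arrays.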

Additional observations from a re-analysis of the deposited data

How the results depend on the processing

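Limma called 0 member probes under each of the 6 alternatives to the fit in both readings, with lowest adjusted p-values of 0.759 to 0.971 in the channel reading and 0.335 to 0.567 in the dye reading. The median of the 7 genes, with 1 array left out, ranged from -0.158 to 0.329 in the channel reading and from 0.158 to 0.329 in the dye reading, so it changed sign with the array in the first. Under centring, scaling and sub-grid removal the median of the 7 genes lay between 0.13 and 0.167 in the channel reading and between 0.1275 and 0.137 in the dye reading. Both other rules for a gene's value, the median over its probes and probes with a value on either array, could not change it. Each measured member has 1 probe, so they are no check of it. With sub-grid medians removed, 0 members were below 0 on both arrays in the dye reading in place of 1, and 3 in place of 2 were above 0 on both in the channel reading, since inaD then had deposited values above 0 on both arrays. With arrays centred on their medians the channel-reading mean of inaD turned from 0.0015 to -0.0045. The other 41 values of single genes under centring, scaling and sub-grid removal kept their sign. Each ratio already pairs both RNAs within an array, so no further replicate block was fitted. Each member has 1 probe, so no second probe checks a value, and without intensities no value can be weighed by its signal over background.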
